A study of Mus musculus with 5 samples.

Results

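The 39 Hox genes of the mouse, all symbols of the form Hox, a cluster letter from a to d and a paralog number, were followed through 5 single-cell RNA libraries of the intestine. They were chosen by symbol alone from the 32285 genes in the count matrices. The libraries came from duodenum, jejunum, ileum, colon and rectum, 1 library each, and values given as a series of 5 follow that order. Per the labels, each holds immune, mesenchymal and epithelial cells, sorted as negative for propidium iodide, which stains the nuclei of dead cells. The labels used here name no strain, genotype, treatment, age or number of mice for any segment. With 1 library a segment, no test between segments was possible.

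Hox genes encode homeodomain transcription factors. They lie in 4 clusters, and along each cluster the genes are ordered as their domains are ordered along the body, with low paralog numbers anterior and high numbers posterior. In the embryonic gut they are best known from the mesenchyme, where posterior members mark the hindgut. The caudal-related CDX proteins regulate Hox genes in the embryo. The genes lie on mouse chromosome 6 (HoxA, 11 genes, chr6:52155367-52260880), chromosome 11 (HoxB, 10 genes, chr11:96194316-96368254), chromosome 15 (HoxC, 9 genes, chr15:102921131-103036856) and chromosome 2 (HoxD, 9 genes, chr2:74668225-74765142) in RefSeq's annotation of GRCm38.p6, in which all 39 symbols were found. By that annotation 10 of them overlap another Hox gene (Hoxa3 with Hoxa4, Hoxa5 and Hoxa6, Hoxb3 with Hoxb4, Hoxd3 with Hoxd4, and Hoxd10 with Hoxd11), and how reads in the overlaps were assigned is not given in the sources used here. The counts of those 10 are uncertain to that extent.

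Promoter sequences are shown for 5 genes whose epithelial levels took different courses along the large intestine. They are examples and do not stand for all genes of a like course. Hoxb8 and Hoxd4 had their highest epithelial level in colon. Hoxa7 was present in colon and, at a higher level, in rectum. Hoxa13 and Hoxd13 were high in rectum and at or near 0 elsewhere. Each line gives the 250 bases before a transcription start, 5′ to 3′ on the gene's strand, from RefSeq on GRCm38.p6. The Hoxb8 window lies inside the span annotated for that gene (chr11:96279401-96285325), before an internal start. Capitals mark TTTATG, a core of the sequence that CDX proteins bind, or its reverse complement CATAAA.
Hoxb8 (chr11:96281655-96281904, plus strand): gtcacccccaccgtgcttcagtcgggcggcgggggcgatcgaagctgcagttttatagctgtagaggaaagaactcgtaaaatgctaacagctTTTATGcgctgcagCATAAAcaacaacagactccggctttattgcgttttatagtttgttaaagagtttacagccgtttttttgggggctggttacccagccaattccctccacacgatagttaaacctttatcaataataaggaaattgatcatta
Hoxa7 (chr6:52218574-52218823, minus strand): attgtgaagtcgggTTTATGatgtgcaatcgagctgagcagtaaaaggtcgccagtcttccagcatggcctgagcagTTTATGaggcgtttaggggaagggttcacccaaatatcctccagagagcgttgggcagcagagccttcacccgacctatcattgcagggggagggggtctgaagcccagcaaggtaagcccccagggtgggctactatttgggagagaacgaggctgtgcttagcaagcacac
Hoxd4 (chr2:74721728-74721977, plus strand): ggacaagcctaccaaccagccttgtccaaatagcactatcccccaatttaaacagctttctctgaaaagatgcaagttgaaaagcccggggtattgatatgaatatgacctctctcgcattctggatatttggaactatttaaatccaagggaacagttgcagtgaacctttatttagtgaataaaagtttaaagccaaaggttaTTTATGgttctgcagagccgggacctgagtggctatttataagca
Hoxa13 (chr6:52260881-52261130, minus strand): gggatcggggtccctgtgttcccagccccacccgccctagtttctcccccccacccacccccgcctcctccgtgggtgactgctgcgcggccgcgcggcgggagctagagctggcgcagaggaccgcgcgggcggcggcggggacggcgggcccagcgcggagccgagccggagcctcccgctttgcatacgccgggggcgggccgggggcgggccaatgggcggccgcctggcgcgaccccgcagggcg
Hoxd13 (chr2:74667975-74668224, plus strand): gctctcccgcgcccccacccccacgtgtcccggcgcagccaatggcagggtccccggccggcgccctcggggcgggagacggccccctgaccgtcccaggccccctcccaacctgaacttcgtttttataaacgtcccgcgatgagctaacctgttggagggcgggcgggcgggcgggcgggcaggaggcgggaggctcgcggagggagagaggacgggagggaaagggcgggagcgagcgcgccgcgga
The letters occurred at 2 places each in the Hoxb8 and Hoxa7 windows, at 1 place 45 bases before the start in that of Hoxd4, and nowhere in those of Hoxa13 and Hoxd13. The promoter table held 24 promoters of 22 Hox genes, of which 5 (20.8%) held the motif on either strand (Hoxa7, Hoxb8, Hoxd3, Hoxd4 and 1 of the promoters of Hoxd11), against 10.8% of all 32851 promoters. Hoxb4 and Hoxd8, also with their highest epithelial level in colon, had no match. Hoxa2, Hoxa3 and Hoxa5, which like Hoxa7 were found in colonic and rectal epithelium, had none either. The Hoxd11 match, 87 bases before the start, lies at a gene that within epithelium was seen only in rectum and that stroma also carried. A match of 6 letters is a description of the window and not a binding site.

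The libraries held 41953568 to 65546664 UMIs (unique molecular identifiers, each standing for 1 captured transcript). After filtering and removal of likely doublets, 11922 of 16535 barcodes were kept, with 1829 to 3196 cells per library and a median of 5059 to 9767 UMIs per cell. Cells were clustered without any Hox gene and named from marker genes. There were 1086, 800, 1114, 1126 and 788 epithelial cells, 51, 15, 27, 187 and 294 stromal cells, 24, 24, 17, 27 and 39 endothelial cells and 2034, 972, 1297, 807 and 1172 immune cells. Each class carried its own markers in all 5 libraries: the 10 epithelial markers summed to 11749 to 16468 CPM (defined below) in epithelium against 48.6 to 197 in stroma, and the 15 stromal markers to 25477 to 41199 CPM in stroma against 2.06 to 9.71 in epithelium. The 20 immune markers summed to 1120, 138, 58.5, 14041 and 4678 CPM in stroma, where an unnamed part led by immunoglobulin genes held 11 colonic and 6 rectal cells. These cells held 367587 of the 1635027 colonic stromal UMIs (22.5%) and 45 of its 650 Hox UMIs, and 204778 of 2677508 in rectum (7.65%) with 12 of 664. In a recomputation without them, chosen after the data were seen, the stromal Hox sums were 477 CPM in colon and 264 in rectum, against 398 and 248 with them, and no stromal gene or class contrast lost its call. All Hox genes together stood at 9.71 to 20.5 CPM in immune cells, against 230 to 602 in stroma. Across libraries 30 barcodes occurred in more than 1 library, and 44 of the cells kept carried such a barcode, 1 of them a colonic stromal cell and none a duodenal one.

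The duodenal library stood apart in its stroma, which carried posterior HoxA transcripts of which jejunal and ileal stroma had no UMI. Its 51 stromal cells also held 15 cells of the PDGFRA-high class, fibroblasts that lie beneath the epithelium, against 0 in jejunum and 1 in ileum. Results on stroma that use the duodenum are therefore given with and without it.

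CPM, the unit of all levels here, are the UMIs of a gene in a class and library divided by all UMIs of that class and library and scaled to 1000000. Intervals are 95% intervals, exact Poisson for CPM and exact Clopper-Pearson for shares, and cover counting error only. In the rule of size below, the lower side was never set under a floor of 3 counts per library. A fold against 0 UMIs is given as at least the fold over that floor, and a fold against 1 to 3 UMIs as the ratio with its exact 95% interval. In the cells kept, 36 of 39 genes had at least 1 UMI, 31808 UMIs in all, while Hoxb1, Hoxc12 and Hoxc13 had none. At least 20 UMIs over the 5 libraries were reached by 27 genes in epithelium, 19 in stroma, 9 in immune cells and 6 in endothelium.

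**Figure D1:**
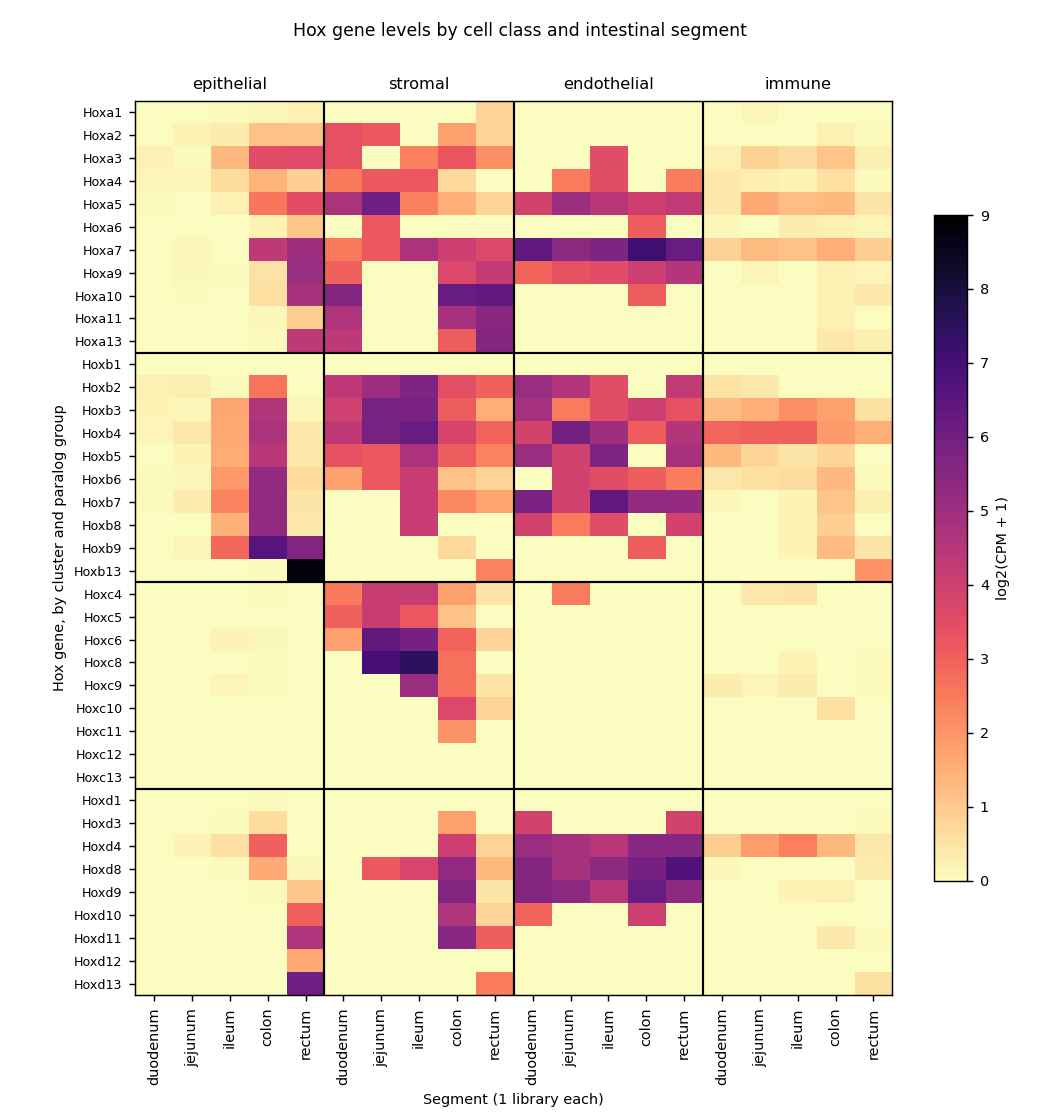
Level of each of the 39 Hox genes (rows, by cluster and paralog number) in each cell class and segment (columns, 1 library each), as log2(CPM + 1) in color. Epithelium is nearly blank in duodenum and jejunum and filled in colon by HoxB genes and in rectum by posterior genes, with Hoxb13 at 438 CPM. Stroma and endothelium carry Hox transcripts in all 5 segments.

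Summed over the 39 genes, epithelium went from near 0 to the highest Hox level of any class, while the other classes had no such slope. The epithelial sums were 0.972, 1.90, 24.5, 331 and 724 CPM. Stroma held 230, 502, 602, 398 and 248 CPM, endothelium 423, 318, 388, 448 and 449 CPM, and immune cells 13, 18.1, 20.5, 19.4 and 9.71 CPM. Fewer expressing cells and less RNA per cell cannot be told apart in such sums.

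In epithelium the HoxB genes from Hoxb2 to Hoxb9 were highest in colon. Hoxb9, a thoracic-level gene in the embryonic axis, stood at 0, 0.116, 6.23, 96.0 and 47.6 CPM. Its level in colon (interval 92.9 to 99.2) was above that in rectum (44.8 to 50.5), and both were above ileum. Hoxb8 stood at 0, 0, 1.78, 37.9 and 0.315 CPM. Hoxb7 had 0.0729, 0.272, 3.99, 38.8 and 0.405 CPM. Hoxb6 had 0.0486, 0.0777, 2.81, 37.4 and 0.585 CPM. These 3 neighbours on chromosome 11 shared a course with a low level in ileum, a peak in colon and under 1 CPM in rectum. Hoxb5 followed at 0, 0.155, 1.99, 20.1 and 0.315 CPM. Hoxb4, known for its role in blood stem cells, was at 0.122, 0.311, 2.07, 24.7 and 0.315 CPM. Hoxb3 was at 0.146, 0.0777, 2.21, 23.2 and 0.0899 CPM. All of Hoxb3 to Hoxb9 were thus also seen in ileum, each at a lower level than in colon. Hoxb2 differed, with 0.17, 0.233, 0.0712, 5.16 and 0 CPM and no higher level in ileum than in jejunum.

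HoxD genes were fewer and lower in colonic epithelium. Hoxd4 stood at 0.0243, 0.155, 0.499, 6.97 and 0 CPM. Hoxd8 stood at 0, 0, 0.0356, 2.05 and 0.0899 CPM. Hoxd3 reached 0.567 CPM in colon (21 UMIs), 0.0356 in ileum and 0 in the other segments. These anterior and central HoxD genes therefore had their only level above the floor of 3 counts in colon, except Hoxd4, which had 14 UMIs in ileum and 4 in jejunum. HoxC was nearly unseen: the epithelial HoxC UMIs numbered 0, 0, 7, 6 and 0, a share of the Hox UMIs in colon of 0.049% (interval 0.018% to 0.107%).

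Anterior and central HoxA genes were found in colon and rectum alike, except Hoxa6, which is given below. Hoxa3 was at 0.17, 0.0388, 1.5, 10.3 and 10.8 CPM, with overlapping intervals in colon (9.34 to 11.4) and rectum (9.47 to 12.2). Hoxa5, which in the embryo patterns lung and gut mesenchyme, was at 0.0486, 0, 0.178, 4.86 and 9.94 CPM. Hoxa7 was at 0.0243, 0.0777, 0, 18.7 and 31.4 CPM. For Hoxa5 and Hoxa7 the rectal interval lay above the colonic one. Hoxa2, a hindbrain gene, was low throughout at 0, 0.155, 0.249, 1.19 and 1.21 CPM. Hoxa4, the only member with 20 UMIs that the naming rule leaves out, ranged from 0.116 to 1.70 CPM.

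The rectal epithelium was marked by HoxA and HoxD genes of paralog groups 9 to 13 and by Hoxb13. Hoxb9, also of group 9, was higher in colon. Hoxb13 (ENSMUSG00000049604, chr11:96194316-96196610), the most posterior HoxB gene and a known gene of prostate and distal gut, had 0, 0, 0, 0.027 and 438 CPM, which is 9751 UMIs in rectum and 1 in colon. In the 3 small intestinal libraries the floor of 3 counts was 0.0729, 0.116 and 0.107 CPM. Hoxd13, needed for the anal sphincter and limbs, had 0, 0, 0, 0 and 64.4 CPM. Hoxa13, its HoxA counterpart in hindgut and limb, had 0, 0, 0, 0.054 and 19.3 CPM. All 3 group 13 genes with a UMI in epithelium were thus rectal. Hoxd12 had 0, 0, 0, 0 and 2.11 CPM. Hoxd11 had 0, 0, 0, 0 and 24.3 CPM. Hoxd10 had 0, 0, 0, 0 and 7.11 CPM. These HoxD genes act in the embryo on limb and lumbosacral skeleton, and none had a UMI in any epithelial cell outside the rectum. Hoxd9, the next gene along, had 0, 0, 0, 0.027 and 1.03 CPM.

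Posterior HoxA genes showed traces in colon. Hoxa9 was at 0, 0.0777, 0.0356, 0.432 and 33.4 CPM. Hoxa10, known from the uterus, was at 0.0243, 0.0388, 0, 0.513 and 27.6 CPM. Hoxa11 was at 0, 0, 0, 0.0811 and 0.899 CPM. Hoxa6 was at 0, 0, 0, 0.135 and 1.08 CPM. The colonic counts behind these levels were 16, 19, 3 and 5 UMIs. Groups 9 to 13 made up 29.4% (interval 28.6% to 30.2%) of the Hox UMIs in colonic epithelium, nearly all of it Hoxb9, and 92.0% (91.6% to 92.5%) in rectum. In ileum the share was 26.0% (22.7% to 29.4%), and in jejunum and duodenum 12.2% and 2.5% of only 49 and 40 UMIs. With immune CPM subtracted the last 2 became 26.7% and 79.7%, so these UMIs were too few to set the share.

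**Figure D2:**
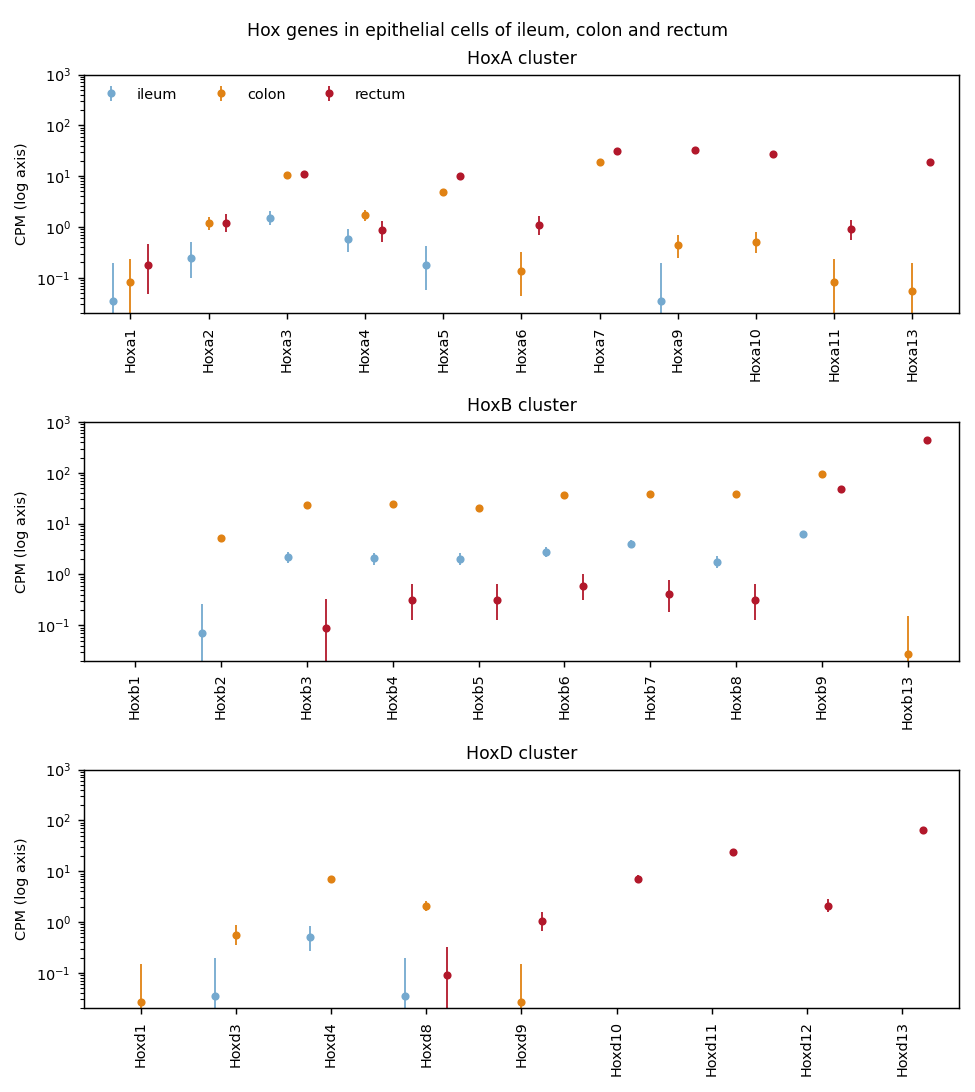
CPM (log axis) of HoxA, HoxB and HoxD genes in epithelial cells of ileum, colon and rectum, 1 library each, with genes in paralog order, points for the level, bars for exact 95% Poisson intervals, and genes without a UMI left blank. In HoxB the colonic points lie above the rectal ones from Hoxb3 to Hoxb9 and far below at Hoxb13 (0.027 against 438 CPM), and in HoxD colon holds Hoxd3, Hoxd4 and Hoxd8 and rectum Hoxd9 to Hoxd13.

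Segments were set against each other by size: the lowest level of one side at least 4-fold above the highest of the other, among genes with 20 UMIs. For both large intestinal against the 3 small intestinal libraries, 6 of the 27 epithelial members passed upward, namely Hoxa2 (4.77-fold), Hoxa3 (6.92-fold), Hoxa5 (27.3-fold), Hoxa7 (160-fold over the floor, with 0 to 2 UMIs in small intestine), Hoxa10 (4.41-fold over the floor, with 0 or 1 UMI) and Hoxb9 (7.63-fold). Over all 15485 genes 2.0% passed. None of the 27 passed downward, where 2.37% of all genes did. The median log2 gap upward was -2.11 for the members and -0.25 for all genes, since most members were high in either colon or rectum but not in both. Without the colon library 16 members passed, and without the rectum library also 16.

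Between rectum and colon, 21 of the 27 epithelial members passed, 11 toward rectum (2.66% of 13848 genes) and 10 toward colon (4.56%). Toward rectum the ratios were at least 794-fold for Hoxd13, 300-fold for Hoxd11, 87.6-fold for Hoxd10 and 26.1-fold for Hoxd12, which had no colonic UMI. Against 1 to 3 colonic UMIs the ratio was 16227 for Hoxb13 (interval 2912 to 640999), 357 for Hoxa13 (98.2 to 2957), 38.3 for Hoxd9 (6.22 to 1577) and 11.1 for Hoxa11 (3.29 to 58.3, which reaches below 4). Hoxa9 (77.2-fold), Hoxa10 (53.7-fold) and Hoxa6 (7.99-fold) completed the group. Every gene of groups 10 to 13 with at least 20 UMIs was among them. Toward colon the ratios were at least 51.7-fold for Hoxd4, 38.3-fold for Hoxb2 and 4.21-fold for Hoxd3, and, against 2 rectal UMIs each, 257 for Hoxb3 (interval 71.1 to 2130) and 22.8 for Hoxd8 (6.11 to 192). Hoxb8 (120-fold), Hoxb7 (95.7-fold), Hoxb4 (78.4-fold), Hoxb6 (63.9-fold) and Hoxb5 (63.8-fold) were the others, all in groups 2 to 8. The 6 members that passed neither way were Hoxa2, Hoxa3, Hoxa4, Hoxa5, Hoxa7 and Hoxb9. The median log2 ratio of rectum to colon was 0.06 for the 27 members and -0.00 for all genes.

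Single cells showed the same division. Hoxb13 was seen in 704 of 788 rectal epithelial cells (89.3%, interval 87.0% to 91.4%) and in 1 of 1126 colonic ones (0.0888%). As a level in a class that should lack the gene, 41 of 1172 rectal immune cells (3.5%) had a Hoxb13 UMI, at a median depth of 4682 UMIs against 30528 in rectal epithelium. At an equal depth of 2000 UMIs, which left out 93 rectal epithelial and 53 rectal immune cells, the shares were 58.0% and 0.983%. A UMI of any of Hoxb1 to Hoxb8 was found in 955 of 1126 colonic cells (84.8%), in 157 of 1114 ileal cells (14.1%), and in 33 of 788 rectal cells (4.19%). At 2000 UMIs these shares were 34.0%, 2.65% and 0.432%, with 90, 132 and 93 cells left out. Of those 33 rectal cells, 32 also had a Hoxb13 UMI. In clusters with more colonic than rectal cells lay 29 rectal epithelial cells. Of these, 16 enteroendocrine cells held 239 Hoxb13 UMIs and 4 of Hoxb1 to Hoxb8, and 7 cells in a crypt cluster with 433 colonic cells held 17 and 7.

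Hoxb4, Hoxb6, Hoxb8 and Hoxb9 in colon, and Hoxa10, Hoxa13, Hoxb13 and Hoxd13 in rectum, were seen in crypt, goblet, colonocyte and enteroendocrine cells alike, at levels that differed between these subclasses. In colon all Hox genes together stood at 355 CPM in crypt cells, 376 in goblet cells, 164 in colonocytes and 727 in enteroendocrine cells. In rectum they stood at 748, 596, 1001 and 1170 CPM, with 473, 241, 57 and 16 cells. Hoxb9 in colon was at 84.5, 122, 49.4 and 281 CPM in these subclasses, so that the enteroendocrine interval (253 to 311) lay above the others. Hoxb8 in colon was at 50.6, 35.5, 9.56 and 99.5 CPM, lowest in colonocytes, the mature absorptive cells. Hoxb13 in rectum was at 453, 352, 778 and 647 CPM. Hoxa13 in rectum was at 49.0 CPM in colonocytes (31.7 to 72.3), above 20.6 in crypt and 11.9 in goblet cells and overlapping the interval of enteroendocrine cells (29.8 CPM, 14.9 to 53.3), whereas Hoxd13 was at 66.9, 57.3, 35.3 and 103 CPM. The rectal colonocytes had a median of 5792 UMIs against 33768 in rectal crypt cells, and the part of depth in these differences was not tested. In ileum the crypt cells carried 47.1 CPM of Hox transcripts, goblet cells 25.6, enterocytes 11.8 and the 19 enteroendocrine cells 85.8. Duodenal and jejunal enterocytes held 0.247 and 0.175 CPM, which are 4 and 3 UMIs.

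**Figure D3:**
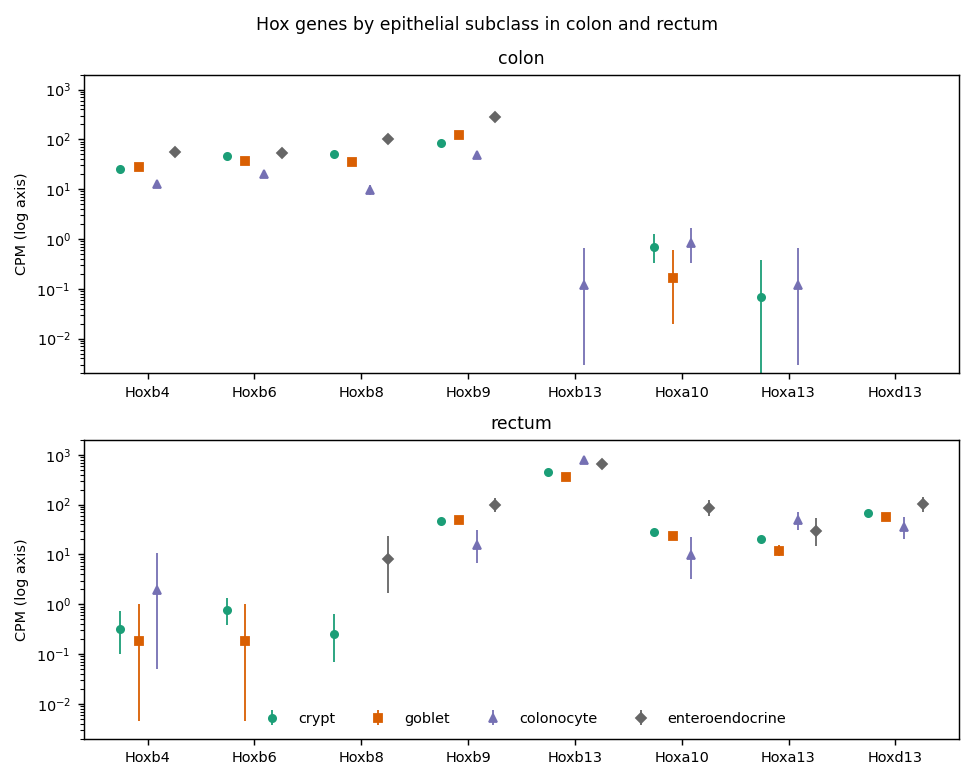
CPM (log axis) of 8 Hox genes in crypt, goblet, colonocyte and enteroendocrine cells of colon (top) and rectum (bottom), with exact 95% Poisson intervals and genes without a UMI left blank. In colon the 4 HoxB genes to the left lie between 9.56 and 281 CPM in every subclass and Hoxb13 is seen by 1 UMI, while in rectum Hoxb13 lies between 352 and 778 CPM.

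Stroma of jejunum and ileum carried central HoxC and anterior HoxB genes, and HoxC made up 46.8% and 49.3% of its Hox UMIs. Hoxc8, a gene of the thoracic axis, stood at 0, 121, 180, 5.50 and 0 CPM, from 0, 15, 43, 9 and 0 UMIs. Hoxc6, named here after its values were seen, stood at 2.34, 81.0, 58.5, 6.73 and 0.747 CPM. Both were high in jejunum and ileum and low in duodenum, colon and rectum. Hoxb4 was at 18.7, 56.7, 71.0, 12.8 and 6.72 CPM. Hoxb3 was at 14.1, 56.7, 54.3, 7.34 and 1.87 CPM. Hoxb2 was at 18.7, 32.4, 50.1, 9.79 and 7.10 CPM. For these 3 the order of levels was ileum or jejunum, then duodenum, then colon, then rectum. The intervals of colon and rectum overlapped for each of them. So did those of duodenum with jejunum and with colon, so the place of duodenum is not set. Hoxa5, also named after its values were seen, was at 25.8, 64.8, 4.18, 1.83 and 0.747 CPM. Hoxa7 was at 4.69, 8.10, 25.1, 14.7 and 11.6 CPM, with overlapping intervals throughout. Of the remaining members with 20 UMIs, Hoxa3 ranged from 0 to 9.37 CPM and Hoxb5 from 4.11 to 25.1 CPM. The 15 stromal members with 1 to 19 UMIs ranged from 0 to 33.4 CPM, the highest being Hoxc9 in ileum (8 UMIs).

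In colonic stroma HoxD genes were high, and in rectal stroma posterior HoxA genes. Hoxd9 stood at 0, 0, 0, 48.9 and 0.373 CPM. Hoxd11 stood at 0, 0, 0, 44.0 and 7.47 CPM. Hoxd10 stood at 0, 0, 0, 24.5 and 0.747 CPM. These neighbours on chromosome 2 had no UMI in small intestinal stroma, where the floor of 3 counts was as high as 7.03, 24.3 and 12.5 CPM. Hoxd8 was at 0, 8.10, 12.5, 37.9 and 1.49 CPM. Hoxd4 was at 0, 0, 0, 14.7 and 0.747 CPM. Hoxc10, which marks the lumbar level, was at 0, 0, 0, 11.6 and 0.747 CPM. Here colonic stroma and colonic epithelium differed, since Hoxd9 to Hoxd11 came to 1 UMI in 1126 colonic epithelial cells.

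Hoxa10 was at 49.2, 0, 0, 72.2 and 79.9 CPM. Hoxa11 was at 23.4, 0, 0, 26.9 and 42.2 CPM. Hoxa13 was at 18.7, 0, 0, 7.34 and 47.1 CPM. Of these only Hoxa13 separated rectum (interval 39.2 to 56.0) from colon (3.79 to 12.8) clearly. Hoxa9 was at 7.03, 0, 0, 11.6 and 17.2 CPM. Hoxb13, the leading rectal gene of epithelium, reached 4.11 CPM in rectal stroma (11 UMIs), and 3.17 CPM in rectal immune cells, whose subclasses ran from 1.9 in plasma cells to 8.33 in T cells. The stromal interval (2.05 to 7.35) overlapped that of immune cells (2.35 to 4.19), and the level is not read as stromal expression. Hoxd13 reached 4.48 CPM (2.32 to 7.83) in rectal stroma, from 12 UMIs, against 0.453 CPM (0.182 to 0.934) in rectal immune cells.

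**Figure D4:**
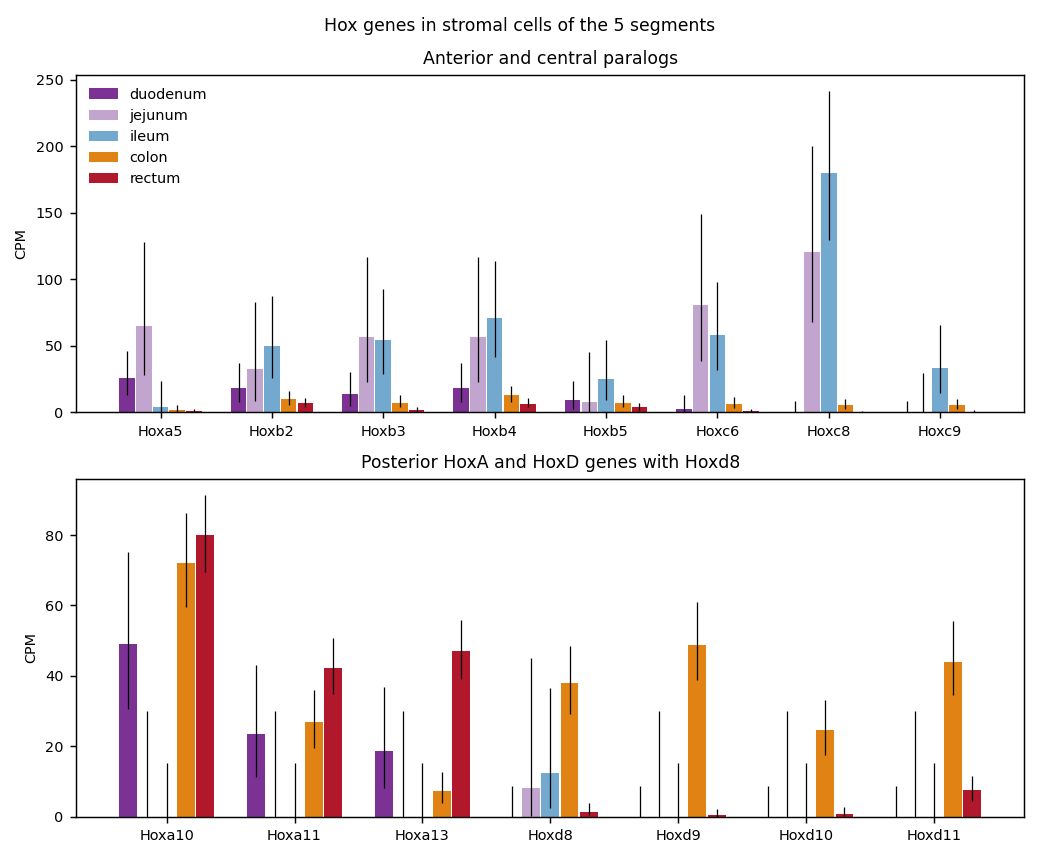
CPM (bars from 0) of 15 Hox genes in stromal cells of the 5 segments, 1 library each, with exact 95% Poisson intervals as black lines, which also stand where a level is 0. Hoxc8 reaches 121 and 180 CPM in jejunum and ileum. In the lower panel the duodenal bars for Hoxa10, Hoxa11 and Hoxa13 (49.2, 23.4 and 18.7 CPM) stand beside empty places for jejunum and ileum, and Hoxd8 to Hoxd11 are high in colon.

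By the rule of size none of the 19 stromal members passed for large over small intestine (0.0448% of 11164 genes) or for small over large (0.116%). The duodenum decided the latter: without it 4 of 18 passed for small over large intestine, Hoxc8 (22.1-fold), Hoxc6 (8.69-fold), Hoxb3 (7.40-fold) and Hoxb4 (4.41-fold), where 0.558% of 10938 genes did. For large over small intestine none passed without it either (0.155% of genes), and Hoxa10 came nearest at 2.97-fold, with the floor of the 15 jejunal cells as the lower side. With or without duodenum, the lower side could not fall under that floor of 24.3 CPM. No member stood 4-fold above that floor in both colon and rectum, so neither 0 for large over small intestine is read as a lack of difference. From rectum to colon, Hoxa13 alone of 15 members passed toward rectum, 6.41-fold (0.614% of 10741 genes). Toward colon 6 of 15 passed (0.754%): Hoxd8 (25.4-fold), Hoxd11 (5.90-fold), and, against 1 or 2 rectal UMIs, Hoxd9 (ratio 131, interval 22.8 to 5238), Hoxd10 (32.8, 8.49 to 280), Hoxd4 (19.7, 4.88 to 172) and Hoxc10 (15.6, 3.75 to 138). The median log2 ratio of rectum to colon was -0.93 for the members and 0.14 for all genes.

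The differences of Hoxd9 and Hoxa13 between colon and rectum were also seen inside the stromal subclasses. Hoxd9 in colon was at 52.4 CPM in PDGFRA-high cells, 62.9 in other fibroblasts, 68.1 in smooth muscle and 45.3 in trophocytes, the deep fibroblasts that make the BMP inhibitor Grem1. In rectum it was at 0, 0, 0 and 2.68 CPM in the same subclasses. Hoxa13 was at 5.83, 7.31, 29.2 and 6.47 CPM in colon and at 68.3, 43.7, 77.0 and 16.1 CPM in rectum. The colonic and rectal intervals of Hoxa13 overlapped in smooth muscle and trophocytes and did not in the other fibroblasts and PDGFRA-high cells. Hoxb4 differed by subclass in both segments. It was at 48.5 CPM in colonic and 42.8 in rectal trophocytes and at 0 to 8.77 CPM in the 3 other named subclasses of both segments. Of these only colonic smooth muscle, with 17 cells, had an interval (0 to 35.9) that overlapped that of the trophocytes of its segment. In ileum 13 trophocytes carried Hoxb4 at 105 CPM and Hoxc8 at 131 CPM. The interval of Hoxb4 in ileal trophocytes (59.9 to 170) overlapped those in colon (27.2 to 80) and rectum (24.5 to 69.5), and trophocytes were 13 of 27 ileal, 37 of 187 colonic and 40 of 294 rectal stromal cells. Trophocytes of ileum carried Hoxb3 at 59 CPM (27 to 112), those of colon at 22.6 (9.11 to 46.7) and those of rectum at 13.4 (4.34 to 31.2). From ileum to rectum the share of trophocytes thus moved with the whole-stroma levels of both genes, and its part in them was not tested.

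The posterior HoxA transcripts of duodenal stroma sat, but for 1 cell, in other cells than those of a set here called proximal. Of 51 duodenal stromal cells, 22 (43.1%, interval 29.3% to 57.8%) had a UMI of Hoxa9 to Hoxa13, 18 had a UMI of the proximal set (HoxA 1 to 5, HoxB 1 to 9 or HoxC), and 1 had both. The set is not purely anterior, since it takes in Hoxb9 and Hoxc9 to Hoxc13 of groups 9 to 13, and it leaves out Hoxa6 and Hoxa7. In jejunum and ileum 0 of 15 and 0 of 27 cells had a posterior HoxA UMI, and 13 and 25 had a proximal one. In colon 109 of 187 cells had the posterior and 81 the proximal kind, with 51 having both, and in rectum the numbers were 210, 48 and 30 of 294. Posterior genes of the set can add to the colonic numbers, as Hoxc10 had 19 UMIs in colonic stroma and 2 in rectal stroma. At 2000 UMIs the posterior shares were 15.7%, 0%, 0%, 22.2% and 29.4%. The duodenal cells with a posterior HoxA UMI were 9 of 15 PDGFRA-high cells, 7 of 18 other fibroblasts, 5 of 9 smooth muscle cells and 1 of 9 trophocytes. No duodenal stromal cell had a UMI of Hoxd8 to Hoxd13, against 104 of 187 colonic and 30 of 294 rectal cells.

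Clusters drawn without Hox genes split the duodenal cells in part in a like way. Stromal parts of which more than 80% of cells were rectal numbered 3, led by Cxcl13 and Sfrp2, by Stmn2 and Il13ra2, and by Ptprr and Lgr5. They held 129 rectal, 4 colonic, 11 duodenal and no jejunal or ileal cells, and 8 of the 11 duodenal cells had a posterior HoxA UMI while 1 had a proximal one. The other 14 duodenal cells with a posterior HoxA UMI lay in parts that held both colonic and rectal cells. Of them 5 lay in a smooth muscle part led by Actg2 and Cnn1, with 4 jejunal, 5 ileal, 17 colonic and 33 rectal cells. Another 5 lay in a part led by Bmp3 and Sox6, with 1 ileal, 13 colonic and 36 rectal cells. In the part led by Lrat and Hmcn1, with 33 colonic and 2 rectal cells, all 8 duodenal cells had a proximal UMI and none a posterior one. In the part led by Has1 and Cxcl1, 7 of 8 duodenal cells had a proximal UMI and none a posterior one. Duodenal epithelium had 1 UMI of groups 9 to 13, of Hoxa10, and so none of Hoxb13, Hoxa13 or Hoxd13. Duodenal immune cells had no UMI of Hoxa9 to Hoxa13. Immune cells of all segments together held only 4, 6, 1 and 5 UMIs of Hoxa9, Hoxa10, Hoxa11 and Hoxa13, so their lack in duodenum tells little. The source of these cells was not tested.

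**Figure D5:**
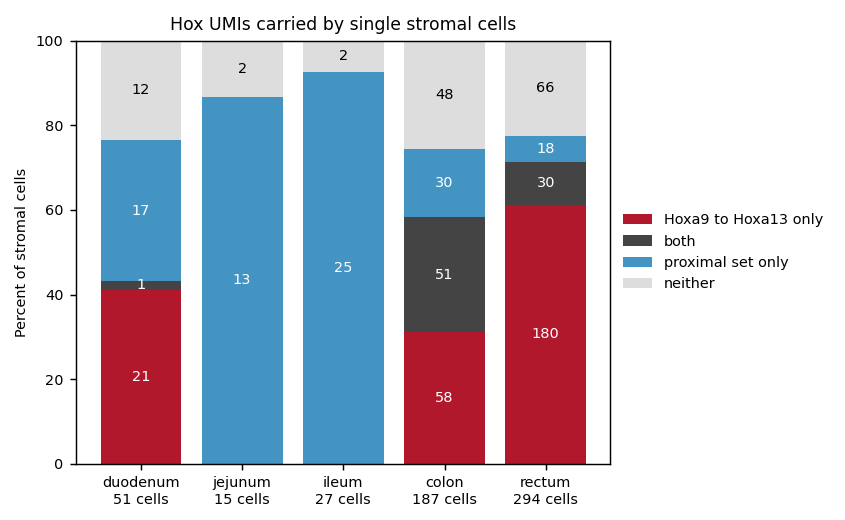
Percent of stromal cells in each segment (bars, 1 library each) with UMIs of Hoxa9 to Hoxa13 only, of the proximal set (HoxA 1 to 5, HoxB 1 to 9, HoxC) only, of both or of neither, with the number of cells in each part. The duodenal bar holds 21 cells with posterior HoxA only, 17 with the proximal set only and 1 with both, while jejunum and ileum hold no posterior HoxA cell and colon holds 51 cells with both.

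Classes were compared across the 5 libraries by edgeR's quasi-likelihood test on UMIs summed per class and library, with the library as a term, over 13894 genes. The library term takes up the spread between libraries, and the p-values measure how class differences vary over libraries of different segments. The filter on low counts left 12 of the 39 members, and the 27 left out include every gene of groups 9 to 13, which had counts in too few libraries. Between stroma and epithelium, 4 of 12 were higher in stroma (27.5% of all genes were) and none lower (33.0%). In stroma Hoxb2 rose by 5.49 on the log2 scale (SE 1.23, edgeR adjusted p = 0.00209), with a higher level in 5 of 5 libraries. Hoxd8 rose by 4.72 (SE 1.10, edgeR adjusted p = 0.00269), higher in 4 of 5. Hoxb4 rose by 3.48 (SE 1.27, edgeR adjusted p = 0.0313) and Hoxb3 by 3.41 (SE 1.32, edgeR adjusted p = 0.0404), both higher in every library but colon. Both calls were lost when any 1 of 4 libraries was left out: without duodenum, jejunum, ileum or rectum in turn, edgeR's adjusted p was 0.0947 to 0.128 for Hoxb4 and 0.0952 to 0.154 for Hoxb3. The median log2 fold was 2.16 for the 12 members and -0.14 for all genes.

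Against immune cells, 1 member was higher and 1 lower in epithelium, where 32.1% and 31.5% of all genes were. Hoxb7 rose by 3.40 (SE 0.97, edgeR adjusted p = 0.00871), higher in 4 of 5 libraries. Without colon, or with only the 2 classes in the fit, it did not pass the filter on low counts and was not tested. Hoxd4 fell by 2.57 on the log2 scale (SE 0.87, edgeR adjusted p = 0.0216), lower in 4 of 5, and lost the call without duodenum, jejunum or ileum (0.101 to 0.103). In stroma 3 of 12 were higher than in immune cells (23.5% of all genes) and none lower (30.8%): Hoxb2 by 6.66 (SE 1.35, edgeR adjusted p = 0.00127), Hoxa2 by 4.91 (SE 1.65, 0.0247) and Hoxd8 by 4.90 (SE 1.39, 0.0103). These calls rest on few UMIs over the 5 libraries: 59 in stroma and 8 in immune cells for Hoxb2, 11 and 2 for Hoxa2, and 70 and 5 for Hoxd8. Hoxa2 lost its call without jejunum (edgeR adjusted p = 0.0636). The members' median log2 folds were 0.72 and 2.86, against 0.01 and -0.22 for all genes.

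Endothelial cells carried Hoxa7, Hoxd8, Hoxd9 and Hoxd4 in every segment. Of 131 endothelial cells, 116 lay in a cluster of lymphatic endothelium, and epithelial markers summed to 2677 CPM in the jejunal ones against 144 to 477 in the others. Hoxa7 was at 80.6, 40.9, 51.0, 140 and 71.9 CPM. Hoxd8 was at 47.0, 27.3, 40.8, 58.8 and 103 CPM. Hoxd9 was at 47.0, 40.9, 20.4, 73.5 and 40.4 CPM. Hoxd4 was at 33.6, 27.3, 20.4, 44.1 and 44.9 CPM. These levels rest on 2 to 23 UMIs a library. Hoxb7 was at 53.7, 13.6, 81.7, 36.8 and 35.9 CPM, and Hoxb4 at 13.4, 59.1, 30.6, 7.35 and 22.5 CPM. Most intervals overlapped between segments, though that of Hoxa7 in colon (84.1 to 218) lay above jejunum (18.7 to 77.6) and that of Hoxd8 in rectum (65.5 to 155) above jejunum (10 to 59.4), and with 17 to 39 cells a library no order was read. Hoxa11, Hoxa13, Hoxb13 and Hoxd11 to Hoxd13 had no endothelial UMI, and HoxC had 1, of Hoxc4 in jejunum. Hoxd9 thus had UMIs in duodenal, jejunal and ileal endothelium, where stroma of the same libraries had none. The floors of 3 counts in that stroma were 7.03, 24.3 and 12.5 CPM. In jejunum and ileum the endothelial intervals reached below these floors, so no difference between endothelium and stroma is read there.

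Immune cells carried Hox transcripts at a low level. Groups 4 to 8 held 83%, 81.5%, 78.4% and 64.3% of their Hox UMIs from duodenum to colon and 42.7% in rectum, where groups 9 to 13 held 49.3%. Of the 74 rectal UMIs of groups 9 to 13, 49 were of Hoxb13, treated above as a gene that this class should lack. The rectal share of these groups is therefore not read as immune expression. Hoxb4 stood at 6.39, 7.04, 7.11, 2.70 and 1.81 CPM. Hoxb3 stood at 1.39, 1.90, 3.36, 2.36 and 0.453 CPM, and Hoxd4 at 0.902, 2.57, 4.29, 1.52 and 0.324 CPM. In the epithelium of the same duodenal and jejunal libraries these 3 were lower, at 0.0243 to 0.311 CPM. Hoxa7 was at 0.82, 1.45, 1.21, 1.86 and 0.842 CPM, Hoxa5 at 0.328, 2.01, 1.34, 1.52 and 0.388 CPM, and Hoxa3 at 0.164, 0.782, 0.537, 1.18 and 0.194 CPM. Hoxb5 was at 1.48, 0.67, 0.403, 0.676 and 0 CPM and Hoxb6 at 0.328, 0.447, 0.537, 1.52 and 0.0647 CPM. Hoxb13 was found in rectum only, at 3.17 CPM. None of the 9 passed the rule of size for large over small (0.247% of 14163 genes) or small over large intestine (0.346%).

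Among immune subclasses, macrophages held less Hox RNA in each segment after the duodenum: 105, 54.5, 46.1, 24.0 and 16.9 CPM, from 98, 84, 84, 109 and 105 cells. Hoxb4 in macrophages was at 45.2, 27.3, 14.4, 5.53 and 4.94 CPM, from 28, 20, 10, 6 and 7 UMIs. Macrophages differed in depth, with a median of 5945, 6860, 5480, 8175 and 13132 UMIs, and the part of this was not tested. In B cells Hoxb4 was at 8.56, 9.05, 9.35, 4.16 and 4.76 CPM, from 5 to 38 UMIs. The macrophage interval lay above that of B cells in duodenum (30.1 to 65.4 against 6.06 to 11.8) and jejunum (16.7 to 42.1 against 5.45 to 14.1) and overlapped it in ileum, colon and rectum.

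ParaHox genes, the relatives of the Hox clusters, include Cdx1 and Cdx2, which regulate Hox genes in the embryo and intestinal identity in the adult. Cdx2 in epithelium was at 108, 101, 97.2, 235 and 28.4 CPM, which passed the rule of size toward colon at 8.30-fold over rectum. Cdx1 was at 94.3, 83.2, 157, 236 and 308 CPM and did not pass. The rectal library thus had the highest level of Cdx1 and the lowest of Cdx2. No other of the 6 ParaHox genes passed in epithelium, where 3 had 20 UMIs. Against epithelium, the 2 ParaHox genes tested were lower in stroma (median log2 fold -7.49, against -0.14 for all genes). They fell in stroma, Cdx1 by 7.53 on the log2 scale (SE 0.57, edgeR adjusted p = 3.62e-07) and Cdx2 by 7.46 (SE 0.50, edgeR adjusted p = 1.52e-07).

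TALE homeodomain proteins of the PBX, MEIS and PKNOX families bind DNA together with Hox proteins. Of 8 tested, 6 were higher in stroma than in epithelium and none lower, each in 5 of 5 libraries, with a median log2 fold of 2.22 for the 8. Over all genes 27.5% were higher and 33.0% lower, with a median of -0.14. Meis1 rose by 9.86 on the log2 scale (SE 0.55, edgeR adjusted p = 4.44e-08), Meis2 by 8.11 (SE 0.86, 6.45e-06) and Meis3 by 3.07 (SE 0.47, 0.00014). Meis1 in epithelium was at 0, 0.0388, 0.107, 0 and 0.135 CPM, also in colon and rectum where the Hox sum was highest, against 53.9, 178, 87.7, 52.0 and 43.0 CPM in stroma. Between segments only Pbx4 passed, with 0.622 CPM in colonic and 0.0899 in rectal epithelium (ratio 6.91, interval 1.71 to 60.5, against 2 rectal UMIs).

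Trithorax and Polycomb proteins keep Hox genes active or silent. Of the 22 genes, all with 20 UMIs in epithelium and immune cells and 20 of them in stroma, none passed the rule of size between segments. Between stroma and epithelium 5 of the 22 were higher and 8 lower, with a median log2 fold of -0.06, near the 27.5%, 33.0% and -0.14 of all genes. Cbx7 rose by 1.96 (SE 0.25, edgeR adjusted p = 3.18e-05), Kmt2a by 0.93 (SE 0.14, 0.000114), Ezh1 by 0.75 (SE 0.27, 0.0319) and Phc2 by 0.71 (SE 0.20, 0.0091). Ezh2, the methyltransferase of Polycomb complex PRC2 and high in dividing cells, fell by 2.85 (SE 0.26, edgeR adjusted p = 1.53e-06), Cbx8 by 2.30 (SE 0.34, 0.000101) and Suz12 by 1.08 (SE 0.15, 6.72e-05).

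Noncoding genes of the Hox clusters were counted apart from the 39 members. The matrices held 11 of the list, 7 with 20 UMIs in epithelium. Hoxa11os was at 0, 0, 0, 0.351 and 49.5 CPM in epithelium (141-fold for rectum over colon), and Hottip, at the posterior end of HoxA, at 0, 0, 0, 0.027 and 5.04 CPM (ratio 186, interval 32.8 to 7427, against 1 colonic UMI). Hoxb5os was at 0, 0, 0.0356, 6 and 0 CPM (at least 44.5-fold for colon over rectum), Hoxb3os at 0.194, 0.0777, 0.214, 1.46 and 0 CPM (at least 10.8-fold), and Hoxd3os1 reached 0.567 CPM in colon and 0 in rectum (at least 4.21-fold). Hotairm1 (5.31-fold) and Hoxaas3 (16.4-fold) passed for large over small intestine. Hotairm1 was the 1 of 3 tested that was higher in stroma than epithelium, by 3.33 (SE 1.0, edgeR adjusted p = 0.0122). In stroma Hoxa11os was at 30.5, 0, 0, 17.7 and 67.2 CPM, from 13, 0, 0, 29 and 180 UMIs. Reads of a gene and its antisense partner cannot be told apart unless counting used strand, which the sources used here do not state.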

How the data were processed

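Single-cell RNA libraries of 5 intestinal segments were read from deposited matrices of raw UMI counts, which the authors made with the Cell Ranger software. The version is 7.2.0 per the file headers and 4.0.0 per the submitters' processing notes, which also name Seurat and the genome build mm10, without a role for either. How reads in overlapping genes or on the antisense strand were assigned is not given in the sources used here. The 39 members and all gene lists were chosen with earlier results of these data known.

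From the counts, barcodes were required to show 300 genes or more and no more than 20% of UMIs from mitochondrial genes (12255 of 16535 passed). The highest Scrublet doublet scores, at 0.8% per 1000 loaded barcodes, were removed (333 cells), which left 11922. Cells were clustered with scanpy 1.11.5 (2000 variable genes, 30 principal components, 15 neighbours, Leiden resolution 1) without Hox genes or the noncoding genes of their clusters and without batch correction. Clusters were named where at least 3 markers of a list were raised 1.5-fold and seen in 10% of cells, thresholds chosen after the data were seen. A cluster much shallower than its libraries with no marker of its class among its 10 leading genes stayed unnamed (1 cluster of 21 cells, median 722 UMIs). Levels are UMIs summed per class and library as CPM, over 123482 to 41142986 UMIs a sum, and lower levels are less precise.

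Segments have 1 library each, so genes with at least 20 UMIs in a class were compared by a rule of size: the lowest CPM of one side at least 4-fold above the highest of the other, with the floor of 3 counts applied to the lower side only. Intervals and floors cover counting error only. Classes were compared with edgeR 4.0.16 (quasi-likelihood test, TMM, low counts filtered, library as a term, Benjamini-Hochberg adjustment, threshold 0.05), with the libraries as the replicates. The classes of a library share their source, so the library number pairs them. Nothing says that the libraries came from separate animals, and p-values measure only how class differences vary between the libraries. Both computations were tested on simulated data. In text, members with 20 UMIs in a class were named, at most the 12 with the most UMIs and those that passed the rule of size, and list genes that passed, at most 4 a direction. Some list genes that passed are not reported here. Alternatives covered the cell filters, doublets, clustering resolution, class assignment, thresholds, free RNA, normalization, DESeq2 1.42.0 and each library left out, and, chosen after seeing the data, stroma without a part led by immunoglobulin genes.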

Additional observations from a re-analysis of the deposited data

Results flagged for a closer look

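Barcodes that the cell filters left out also carried a Hox transcript. In the 734 rectal barcodes left out, Hoxb13 stood at 191 CPM (exact 95% Poisson interval 178 to 205, counting error only), from 780 UMIs, while the 1159, 1055, 887 and 778 barcodes left out of the duodenal, jejunal, ileal and colonic libraries held no Hoxb13 UMI, where floors of 3 counts were 0.258, 0.312, 0.493 and 0.332 CPM. The signal drew attention because it lies outside the cells compared and above the other segments.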

How the results depend on the processing

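Of 379 counts and shares recomputed under an alternative, 319 stayed within 1.5 times the count or within the interval, and 60 moved; of 526 values for single genes, 29 lost their call and none reversed. For large over small intestine in epithelium, a gap of 8-fold left 2 members, and leaving out 1 library gave up to 16 (without colon or rectum). For small over large intestine a gap of 2-fold gave 1 in stroma and 1 in immune cells, and leaving out 1 library gave 0 to 4 in stroma (4 without duodenum). In immune cells the count for large over small was 0 to 1. Toward rectum, at least 50 UMIs left 7 epithelial members, and the stromal count was 2 with every barcode kept, 2 with no doublets removed and 0 at 8-fold. Toward colon, 3 stromal members had 50 UMIs and passed. Between stroma and epithelium DESeq2 called 14 members higher, edgeR without the filter 14, and edgeR without the library term, that is with no replicate block, 2 (adjusted p = 0.201 for Hoxb4 and 0.376 for Hoxb3). Leaving out 1 library gave 2 to 5 higher and 0 to 1 lower. Lower calls were 1 with every barcode, 1 with no doublets removed and 3 without the filter. For epithelium over immune cells the higher count was 2 with every barcode, 2 at 10% mitochondrial UMIs, 2 with no doublets removed, 3 with DESeq2, 7 without the filter, 0 with only 2 classes and 4 without the replicate block; leaving out 1 library gave 0 to 4. The lower count was 0 at 10%, 4 with DESeq2, 2 without the filter, 0 with 2 classes and 0 without the replicate block (Hoxd4, adjusted p = 0.774), and 0 to 2 with 1 library left out. For stroma over immune cells 6 were higher without TMM, 19 with DESeq2, 12 without the filter, 5 with 2 classes and 2 to 6 with 1 library left out. Without the filter and with DESeq2, 36 members were tested in place of 12. The causes of the other shifts were not tested. The epithelial share of groups 9 to 13 with immune CPM subtracted was 79.7% in duodenum, 26.7% in jejunum, 35.1% in ileum and 30.5% in colon. As a mean of cells it was 20.9% in ileum and 32.2% in colon, and at 10% mitochondrial UMIs 0% in duodenum. At 2000 UMIs a cell, shares with a UMI were 58% for Hoxb13 in rectal and 17.2% for Hoxb9 in colonic epithelium, and 14.3% for Hoxa10 in rectal and 8.52% for Hoxd9 in colonic stroma. Stroma without the immunoglobulin-led part, an alternative chosen after seeing the data, moved no count, share or call. Depth set floors of 7.03 to 24.3 CPM in small intestinal stroma and 13.5 to 30.6 CPM in endothelium.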
